A study of Mus musculus with 24 samples.

Results

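Cultures of mouse embryonic fibroblasts (MEFs) hold RNA of macrophage genes beside that of the fibroblasts, and 34 such genes were followed here through the 8 groups of a study of cardiac reprogramming. The 34 genes were taken by name from the count table, which lists 47967 genes. They comprise 6 genes of the lysosome and of oxidative killing, 3 complement C1q chains, 5 scavenger and pattern receptors, 5 Fc receptors and adaptors, the ligand Csf1 and its receptor Csf1r, 7 surface proteins, the transcription factor Spi1, the antigen presentation gene Cd74, 3 actin-binding proteins of blood cells and the chemokine Pf4. Of the 34, 33 had enough counts to be tested among 17576 genes, and Cd163 did not. In these cultures 18 members reached the filter's minimum of 0.298 CPM, read counts scaled to a common library size, in every library of all 8 groups, while Fcgr2b and Aif1 passed through mock at day 7 alone and so had to differ there.

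Macrophages are phagocytes of the innate immune system that live in nearly every tissue and are also found among the cells taken from an embryo. They depend on the receptor CSF1R, which is switched on by the cytokine CSF1 made by fibroblasts and other stromal cells. Spi1 encodes a transcription factor required for the macrophage lineage, which binds a purine-rich motif in the promoters of many macrophage genes. Typical products of the cells are lysosomal enzymes, complement C1q, receptors for debris and for antibodies, and the small adaptors that carry the signals of those receptors.

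The cells were C57BL/6 MEFs of embryonic day 13.5 to 14.5. They were mock-treated or transduced with retroviruses of the GMT, GHMT or AGHMT cocktail, whose letters usually stand for Gata4, Mef2c and Tbx5, with Hand2 added in GHMT and the kinase Akt1 added in AGHMT. Total RNA was taken at day 2 or day 7, in 3 libraries for each of the 8 groups. Infected cells were moved to an induction medium with horse serum and supplements. The labels state neither the medium of the mock cells nor whether they received an empty virus, so medium, virus and cocktail cannot be told apart in a comparison with mock. No label names a batch or states that the 3 replicates are independent cultures, and a p-value then rests on differences between libraries that may be of technical origin.

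The libraries held 29345957 to 37495178 counts. Gata4 stood at 626.5 to 1508 CPM in the 18 libraries whose cocktail holds it and at 1.33 to 1.87 CPM in the 6 mock libraries, and Hand2 at 935 to 1188 CPM in the 12 libraries of GHMT and AGHMT and at 3.08 to 8.05 CPM in the other 12. Akt1, which the cells also express without it, differed far less, at 444.5 to 484.5 CPM in the 6 AGHMT libraries and 359.4 to 403.5 CPM in the other 18. Col1a1, the main collagen of fibroblasts, stood at 21111 ± 1528 CPM in mock at day 7. Levels are TMM-scaled CPM, given as the mean ± SD of n = 3 libraries unless the value of each is listed in replicate order. Differences are log2 fold changes ± SE from edgeR's quasi-likelihood test, and a gene is called higher or lower at a Benjamini-Hochberg adjusted p under 0.05 over all genes tested. In bulk RNA, fewer macrophages and less of a transcript per macrophage cannot be told apart, which holds for every level below.

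Promoter sequences of 25 members were found in the RefSeq table (build GRCm38.p6), and 4 are shown because the genes have high levels or large differences. Mrc1 changed most between groups, C1qb and C1qc are neighbouring chains of the same complex, and Lyz2 had the highest level per length in mock at day 7. Each run is the 250 bases before the start that RefSeq gives for the gene, 5′ to 3′ on the strand of the gene, with the motif GAGGAA or its reverse TTCCTC in capitals, the core bound by the Spi1 factor. Gene coordinates printed further on are those of GENCODE, whose starts differ from those of RefSeq, so the windows of Mrc1, C1qc and Lyz2 reach into the genes as GENCODE draws them.
Mrc1 (chr2:14229164-14229413, plus strand): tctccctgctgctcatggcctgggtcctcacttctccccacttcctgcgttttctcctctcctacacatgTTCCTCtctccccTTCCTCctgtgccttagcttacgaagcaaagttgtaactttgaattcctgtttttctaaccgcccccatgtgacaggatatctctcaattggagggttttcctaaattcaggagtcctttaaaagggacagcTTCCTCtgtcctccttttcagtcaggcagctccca
C1qb (chr4:136886201-136886450, minus strand): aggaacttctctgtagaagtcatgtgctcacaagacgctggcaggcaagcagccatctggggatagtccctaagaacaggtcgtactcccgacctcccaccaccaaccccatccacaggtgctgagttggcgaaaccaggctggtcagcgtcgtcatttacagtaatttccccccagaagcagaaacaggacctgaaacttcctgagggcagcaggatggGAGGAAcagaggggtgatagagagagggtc
C1qc (chr4:136892915-136893164, minus strand): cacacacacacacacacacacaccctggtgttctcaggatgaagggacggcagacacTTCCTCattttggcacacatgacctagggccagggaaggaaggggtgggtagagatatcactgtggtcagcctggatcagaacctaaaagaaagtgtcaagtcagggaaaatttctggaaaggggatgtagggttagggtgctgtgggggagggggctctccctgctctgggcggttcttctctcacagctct
Lyz2 (chr10:117282273-117282522, minus strand): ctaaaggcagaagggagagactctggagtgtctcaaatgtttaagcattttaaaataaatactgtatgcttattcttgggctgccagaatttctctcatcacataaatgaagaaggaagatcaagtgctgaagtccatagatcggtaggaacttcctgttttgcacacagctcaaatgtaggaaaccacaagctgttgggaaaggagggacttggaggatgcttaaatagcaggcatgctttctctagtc
The motif occurred 3 times in the Mrc1 window, once in each C1q window and not in the Lyz2 window. On either strand it lay in the window of 14 of the 25 members (56.0%), against 25.9% of 27025 genes in the table. These are matches of letters and show no binding.

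In mock cultures almost every macrophage gene rose between day 2 and day 7. Of the 33 members tested, 32 were higher at day 7 and 1 was lower, with a median log2 change of 2.91, where 29.7% of all genes tested were called higher and 25.8% lower, 55.5% either way, with a median near 0 (0.00327). The single gene that fell was the ligand Csf1. The 32 include Fcgr2b and Aif1, which passed the filter through mock at day 7 alone and so had to differ there. They also include Cd74, whose call was lost under 5 alternatives. Among these were DESeq2 (adjusted p = 0.103) and edgeR without replicate 1 of mock at day 7 (adjusted p = 0.367). The summed level of the 33 members other than Csf1 stood at 98.77, 102.9 and 101.6 CPM in the mock libraries at day 2 and at 846.6, 576.2 and 841 CPM at day 7. The day 7 libraries lay far above those of day 2, and replicate 2 lay below the other 2. Beside this, 8 of 10 fibroblast markers were also called higher at day 7 and 1 lower, with a median of 0.891, and their part in the result was not tested.

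At day 7 the macrophage genes were far lower under every cocktail than in mock. Under GMT 31 of 33 members were lower and 0 higher (median -3), where 36% of all genes were called lower and 37.1% higher, 73% either way. Under GHMT 32 were lower and 1 was higher (median -2.72), against 35.6% and 36.3% of all genes, 72% either way. Under AGHMT 31 were lower and 0 higher (median -3.19), against 38.1% and 38.6%, 76.8% either way. The median over all genes tested was 0.0118, 0.00229 and -0.00328 in the same order. The summed level was 111.8, 96.87 and 92.71 CPM in the GMT libraries, 100.9, 105.6 and 98.72 CPM in GHMT and 101, 72.63 and 86.44 CPM in AGHMT. No library of a cocktail came near the lowest mock library at 576.2 CPM, and the day 7 sums under GMT and GHMT lay close to those of mock at day 2. That closeness rests in part on Csf1r. It made up a mean of 25.7% of the sum under GMT and 18.5% under GHMT at day 7, against 3.58% in mock at day 2. The rest of the sum lay below that of mock at day 2. The 3 comparisons share the mock libraries. Their counts of lower members include Fcgr2b and Aif1, which were tested only through mock at day 7. Without mock replicate 2, 32, 33 and 31 members were called under GMT, GHMT and AGHMT.

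**Figure D1:**
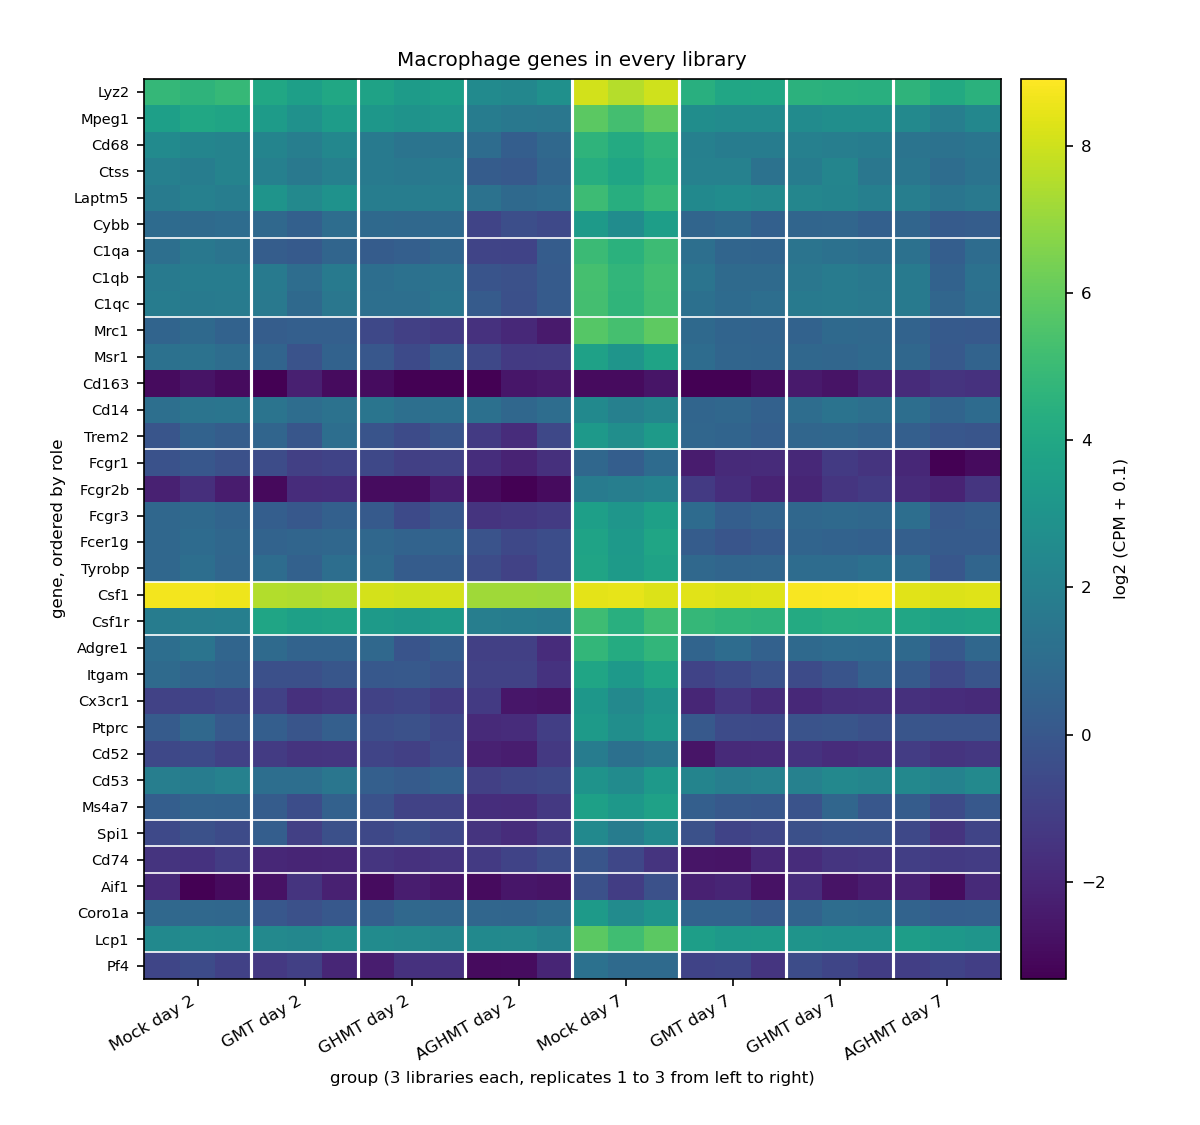
Level of the 34 macrophage genes (rows, ordered by role with white lines between roles) in the 24 libraries (columns, 3 a group), as log2 of CPM plus 0.1. The 3 mock libraries at day 7 are brighter than all others for most rows, while Csf1 is high throughout and Cd163 is near the floor in every library.

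At day 2 the cocktails differed. Under AGHMT 27 of 33 members were lower than in mock and 0 higher (median -1.73, with 37.4% of all genes called lower and 38% higher, 75.4% either way). Under GHMT 17 were lower and 1 higher (median -0.563, against 33.3% and 34.9%, 68.2% either way), and under GMT 11 were lower and 2 higher (median -0.374, against 33.1% and 33.9%, 67.1% either way), so for GMT the share called lower was near the background. The summed level was 92.79, 71.55 and 94.12 CPM in the GMT libraries and 73.13, 63.44 and 68.83 CPM in GHMT. The GMT and GHMT ranges overlapped, and both lay below the mock range of 98.77 to 102.9 CPM. In AGHMT the sum was 36, 30.75 and 35.79 CPM, below every library of the other groups.

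Set side by side, AGHMT was below GHMT at day 2 for 26 members and above it for 0 (median -1.25, with 27% of all genes called lower and 25.7% higher, 52.7% either way). At day 7 it was lower for 6 and higher for 0 (median -0.311, against 23.6% and 25%, 48.7% either way), a smaller share of the 33 than the background in this fit. The background was not matched to the members in level, and genes with few counts are called less readily. Without the filter on low counts 15 members were called in that comparison, and 11 with the compared libraries alone. The shares of all genes under these settings were not computed. GHMT against GMT was lower for 8 members and higher for 2 at day 2 (against 21.7% and 23.1%, 44.8% either way), and lower for 2 and higher for 4 at day 7 (against 18.8% and 18.7%, 37.5% either way). The count of 10 for GHMT against GMT at day 2 dropped to 5 without GHMT replicate 2, and that of 6 at day 7 dropped to 2 without GHMT replicate 2 and rose to 11 without the filter on low counts. For AGHMT against GHMT at day 7 the count also rose to 11 without AGHMT replicate 1.

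Within each cocktail fewer members were called between the days than in mock. From day 2 to day 7, GMT had 4 members higher and 4 lower (with 27.5% of all genes called higher and 24.4% lower, 51.9% either way), GHMT 14 higher and 1 lower (against 25.6% and 24.6%, 50.2% either way) and AGHMT 25 higher and 1 lower (against 29.5% and 24.9%, 54.5% either way). Tested as an interaction, the effect against mock was lower at day 7 than at day 2 for 30 members under GMT and higher for 1 (with 25.3% and 24.3% of all genes, 49.5% either way), lower for 28 and higher for 2 under GHMT (26% and 23.3%, 49.3% either way), and lower for 25 and higher for 2 under AGHMT (26.1% and 24.8%, 50.9% either way). The count of 8 for GMT over time rose to 14 without the filter on low counts and to 15 with the compared libraries alone. The median of the interaction was -3.02, -2.31 and -1.52 in the same order. All of these share the mock libraries of both days.

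**Figure D2:**
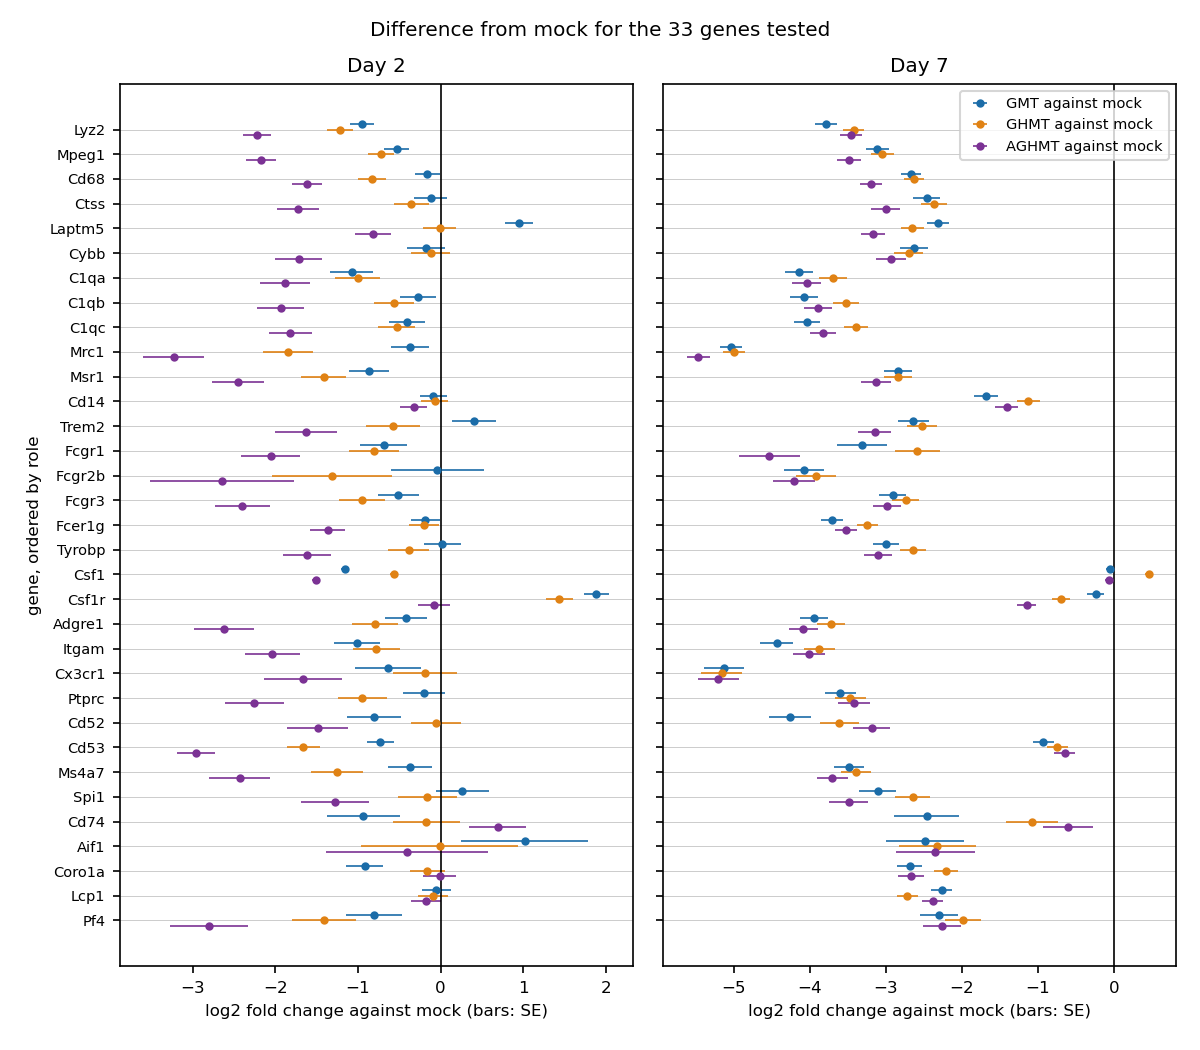
Log2 fold change against the mock of the same day (x axis, points, with SE as bars) for the 33 genes tested (y axis, ordered by role), at day 2 on the left and day 7 on the right. At day 7, 29, 27 and 28 genes lie at -2 or lower under GMT, GHMT and AGHMT, against 0, 0 and 13 at day 2, where Csf1r under GMT and GHMT lies to the right of 0.

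All 6 genes of the lysosome and of oxidative killing were below mock under every cocktail at day 7. Lyz2 (ENSMUSG00000069516, chromosome 10, 117277331-117282321 on GRCm38), the lysozyme of macrophages and other myeloid cells, stood at 28.6, 25.03 and 29.1 CPM in mock at day 2 and at 271, 187 and 258 CPM at day 7 (log2 3.11 ± 0.14, adjusted p = 1.57e-15, edgeR). At day 7 it was 20.8, 15.2 and 15.7 CPM under GMT, 23.6, 21.9 and 21.1 CPM under GHMT and 25.2, 17.5 and 22.4 CPM under AGHMT. All cocktail libraries lay far below the lowest mock library, and the AGHMT libraries overlapped with those of GMT and GHMT, which did not overlap with each other. Against mock Lyz2 was 13.9-fold lower under GMT (log2 -3.79 ± 0.15, adjusted p = 9.31e-18), 10.7-fold lower under GHMT (log2 -3.42 ± 0.14, adjusted p = 4.82e-17) and 10.98-fold lower under AGHMT (log2 -3.46 ± 0.14, adjusted p = 3.84e-17). At day 2 it was lower under each, at 14.3 ± 2.07, 11.9 ± 1.41 and 5.85 ± 1.01 CPM under GMT, GHMT and AGHMT against 27.6 ± 2.22 CPM in mock (log2 -0.95 ± 0.15, -1.22 ± 0.16 and -2.23 ± 0.17). GMT and GHMT overlapped there and were not called apart (log2 -0.265 ± 0.164, adjusted p = 0.203, edgeR), while AGHMT lay below both. Mouse Lyz1 is a close copy of Lyz2, so reads of the pair may have been shared in counting.

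Mpeg1 (ENSMUSG00000046805, chromosome 19, 12460779-12465283), a pore-forming protein that macrophages send against engulfed bacteria, stood at 56.98, 38.9 and 60.3 CPM in mock at day 7. It was 6.26, 5.94 and 5.85 CPM under GMT, 5.94, 6.47 and 6.43 CPM under GHMT and 5.31, 3.62 and 4.99 CPM under AGHMT (log2 -3.11 ± 0.15, -3.05 ± 0.15 and -3.48 ± 0.16). The mock and cocktail libraries were far apart. Mpeg1 was below its own mock level of day 2, 13.7 ± 1.72 CPM, in every cocktail library of both days. The other genes of this set were Cd68, a lysosomal glycoprotein, Ctss, the protease cathepsin S, and Cybb, the heavy chain of the phagocyte oxidase, at 22.9 ± 4.29, 18.99 ± 4.02 and 9.29 ± 2.81 CPM in mock at day 7. All 3 fell under every cocktail at day 7, by 2.37 to 3.20 on the log2 scale, and under AGHMT at day 2.

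Laptm5 (chromosome 4, 130913125-130936141), a lysosomal membrane protein of blood cells, was singled out after its values were seen, because it was above mock under GMT at day 2. It stood at 8.03, 5.33 and 7.36 CPM there and at 3.29, 3.87 and 3.56 CPM in mock, with no overlap (log2 0.95 ± 0.18, adjusted p = 3.76e-05, edgeR). GHMT, at 3.57, 3.58 and 3.53 CPM, lay within the mock range, and AGHMT, at 2.37, 1.74 and 1.94 CPM, below it (log2 -0.82 ± 0.22). By day 7 mock had risen to 33.7, 20.5 and 28.99 CPM, above all libraries of GMT (5.59 ± 0.384 CPM), GHMT (4.39 ± 0.541 CPM) and AGHMT (3.08 ± 0.527 CPM). The effect of GMT on Laptm5 thus went from above to below mock, and differed between the days by log2 -3.26 ± 0.23 (adjusted p = 1.21e-11, edgeR).

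The complement chains C1qa, C1qb and C1qc, which together form the recognition molecule of the classical complement pathway and lie side by side on chromosome 4, were all below mock under every cocktail at day 7. C1qb (136880129-136886187) stood at 39.5, 26.3 and 37.1 CPM in mock at day 7, against 3.12, 3.44 and 3.44 CPM at day 2 (log2 3.36 ± 0.17, adjusted p = 2.06e-14, edgeR). At day 7 it was 2.55, 1.798 and 1.77 CPM under GMT, 2.77, 3.26 and 2.89 CPM under GHMT and 3.24, 1.34 and 2.29 CPM under AGHMT. The highest cocktail library held 3.26 CPM and the lowest mock library 26.3 CPM, and the AGHMT libraries overlapped with those of GMT and GHMT, which did not overlap with each other. The folds were 16.9-fold lower (log2 -4.08 ± 0.18, adjusted p = 3.11e-16), 11.5-fold lower (log2 -3.52 ± 0.17, adjusted p = 2.13e-15) and 14.9-fold lower (log2 -3.90 ± 0.18, adjusted p = 6.52e-16). C1qc (136889804-136893065) stood at 37.8, 25.4 and 35.4 CPM in mock and at 2.002 ± 0.169, 3.12 ± 0.185 and 2.304 ± 0.865 CPM under the cocktails, and C1qc was the only chain called between GHMT and GMT at day 7 (log2 0.64). C1qa stood at 29.6 ± 6.06 CPM in mock and at 1.68 ± 0.394 to 2.27 ± 0.2301 CPM under the cocktails.

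At day 2 the 3 chains differed in how they met GMT. C1qa was 1.203 ± 0.248 CPM against 2.52 ± 0.385 CPM in mock and was called lower, while C1qb and C1qc were not called (log2 -0.27 ± 0.22, adjusted p = 0.29, and log2 -0.41 ± 0.21, adjusted p = 0.0974, edgeR). C1qc was called without the filter on low counts (adjusted p = 0.0152), with the replicate block (0.0264) and with the compared libraries alone (0.0398), and over all alternatives its adjusted p ran from 0.0152 to 0.45. The count of C1qa over that of C1qb was 0.355 to 0.514 in the GMT libraries at day 2 and 0.682 to 0.843 in mock, and 0.816 to 0.913 in mock at day 7. The ratio of C1qc to C1qb stayed between 0.849 and 1.29 in every library. Under GHMT C1qb and C1qc were lower at day 2 by log2 -0.56 ± 0.24 and -0.53 ± 0.22, but the call of C1qb was lost without any single one of the 6 libraries compared (adjusted p up to 0.11) and that of C1qc without 5 of the 6 (adjusted p up to 0.109). Under AGHMT all 3 chains fell at day 2, C1qb to 0.811, 0.723 and 1.05 CPM.

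Among the scavenger receptors Mrc1 (ENSMUSG00000026712, chromosome 2, 14229392-14332057), the mannose receptor, had the widest range. It stood at 1.46, 1.73 and 1.35 CPM in mock at day 2 and at 52.05, 39.01 and 59.1 CPM at day 7, a 32.9-fold rise (log2 5.04 ± 0.14, adjusted p = 3.64e-19, edgeR). At day 7 it was 1.72, 1.46 and 1.397 CPM under GMT, 1.34, 1.71 and 1.64 CPM under GHMT and 1.38, 1.01 and 0.981 CPM under AGHMT (32.8-, 31.9- and 44.4-fold lower, log2 -5.04 ± 0.14, -4.997 ± 0.14 and -5.47 ± 0.15). The mock libraries stood alone, and the cocktail libraries lay within or below the range of mock at day 2. At day 2 GMT at 1.11, 1.21 and 1.22 CPM was not called against mock (log2 -0.37 ± 0.23, adjusted p = 0.168), whereas GHMT at 0.528, 0.397 and 0.333 CPM and AGHMT at 0.232, 0.164 and 0.0831 CPM were lower (log2 -1.84 ± 0.31 and -3.23 ± 0.37). The 4 groups did not overlap at day 2, though the AGHMT libraries held only 8, 5 and 3 counts.

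Msr1 (chromosome 8, 39581685-39642673), which takes up modified lipoproteins, stood at 12.8, 8.26 and 13.8 CPM in mock at day 7 and at 1.62 ± 0.266, 1.62 ± 0.1097 and 1.32 ± 0.316 CPM under GMT, GHMT and AGHMT (log2 -2.84 ± 0.19, -2.84 ± 0.19 and -3.13 ± 0.20). It was also called lower under all 3 at day 2 (log2 -0.87 ± 0.24, -1.41 ± 0.27 and -2.45 ± 0.31). Trem2, a receptor for lipids and debris, followed at day 7 from 8.72 ± 1.95 CPM in mock to 0.9803 ± 0.1903 CPM under AGHMT. Cd14, the coreceptor for bacterial lipopolysaccharide, had a narrower range and was singled out after its values were seen. It stood at 5.49, 3.89 and 4.82 CPM in mock at day 7 and at 1.48 ± 0.156, 2.17 ± 0.232 and 1.77 ± 0.31 CPM under the cocktails (log2 -1.68 ± 0.16, -1.12 ± 0.15 and -1.41 ± 0.15). At day 2 no cocktail was called (2.42 ± 0.2603 CPM in mock, 1.91 ± 0.315 CPM under AGHMT), though AGHMT was without mock replicate 1 (adjusted p = 0.0462, edgeR) or AGHMT replicate 1 (0.0415). Cd163, the haemoglobin scavenger receptor, was close to absent, with 51 counts over all 24 libraries and at most 0.261 CPM in any of them, in a replicate of AGHMT at day 7.

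The Fc receptors and their adaptors fell together at day 7. Fcer1g (chromosome 1, 171229572-171234365), the signalling chain shared by several Fc receptors, stood at 13.6, 9.83 and 14.8 CPM in mock and at 1.07, 0.828 and 1.02 CPM under GMT, 1.43, 1.33 and 1.25 CPM under GHMT and 1.23, 1.04 and 1.04 CPM under AGHMT. All cocktail libraries lay below the mock libraries of day 2 as well (1.69 ± 0.134 CPM). The differences from mock at day 7 were log2 -3.71 ± 0.15 (adjusted p = 1.71e-17), -3.25 ± 0.14 (9.76e-17) and -3.53 ± 0.15 (4.15e-17, edgeR). Tyrobp (chromosome 7, 30413760-30417585), the adaptor that pairs with Trem2 and other receptors, stood at 14.2, 10.1 and 13.1 CPM in mock and at 1.56 ± 0.0913, 2.001 ± 0.172 and 1.44 ± 0.504 CPM under GMT, GHMT and AGHMT (log2 -2.999 ± 0.18, -2.64 ± 0.17 and -3.11 ± 0.18). At day 2 both adaptors were called lower under AGHMT alone (log2 -1.37 ± 0.21 and -1.62 ± 0.29), and under GMT and GHMT the log2 differences of the pair ran from -0.39 to 0.02.

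The receptors themselves were at lower levels. Fcgr3, the low-affinity activating receptor, stood at 11.03 ± 2.099 CPM in mock at day 7 and at 1.39 ± 0.594 to 1.65 ± 0.0798 CPM under the cocktails. The inhibitory receptor Fcgr2b reached 3.37, 3.68 and 4.15 CPM in mock at day 7 and at most 0.328 CPM in any other library, where it rested on few counts. Fcgr1, the high-affinity receptor, stood at 1.595, 1.15 and 1.87 CPM in mock at day 7 and at 0.157, 0 and 0.0297 CPM under AGHMT, the last being 5, 0 and 1 counts. It was the member with the lowest value for AGHMT against GHMT at day 7 (log2 -1.95). Fc receptor genes resemble one another, so their counts may be shared in part.

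Csf1r (ENSMUSG00000024621), the receptor on which macrophages depend, stood at 34.9, 21.3 and 35.1 CPM in mock at day 7. It was 28.2, 25.3 and 23.98 CPM under GMT, 17.98, 19.7 and 18.7 CPM under GHMT and 15, 12.8 and 13.5 CPM under AGHMT. The GMT libraries overlapped with mock and GHMT and AGHMT lay below it, without overlap among the 3 cocktails. Against mock the change was log2 -0.24 ± 0.12 under GMT (adjusted p = 0.0686, not called), -0.69 ± 0.12 under GHMT (1.37e-05) and -1.14 ± 0.12 under AGHMT (8.33e-09, edgeR), where the median of the 33 members was -2.72 or lower. Under GMT the call depends on the libraries and the filter. It was log2 -0.44 and called without mock replicate 2 (adjusted p = 1.85e-05), and also called without GMT replicate 1 (0.0434) and without the filter on low counts (0.00123). Over all alternatives the adjusted p ran from 1.85e-05 to 0.36.

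At day 2 Csf1r was above mock under both cocktails without Akt1. It stood at 14.3, 12.4 and 13.4 CPM under GMT and 10.1, 8.77 and 10.6 CPM under GHMT, against 3.38, 3.71 and 3.77 CPM in mock (3.697-fold, log2 1.89 ± 0.16, adjusted p = 8.16e-11, and 2.71-fold, log2 1.44 ± 0.17, adjusted p = 2.9e-08, edgeR). AGHMT at 3.71, 3.45 and 3.16 CPM overlapped with mock (log2 -0.08 ± 0.19, adjusted p = 0.732) and was below GHMT by log2 -1.51 ± 0.17 (adjusted p = 3.61e-08). From day 2 to day 7 Csf1r rose in all 4 treatments, by log2 3.07 ± 0.15 in mock, 0.95 ± 0.12 under GMT, 0.94 ± 0.13 under GHMT and 2.003 ± 0.16 under AGHMT.

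In order of group means Csf1r ran from mock at day 7 (30.4 ± 7.88 CPM) through GMT (25.8 ± 2.14), GHMT (18.8 ± 0.879) and AGHMT (13.8 ± 1.11) at day 7, then GMT (13.4 ± 0.953), GHMT (9.81 ± 0.927), mock (3.62 ± 0.209) and AGHMT (3.44 ± 0.275) at day 2. Neighbours whose libraries overlapped were mock and GMT at day 7, AGHMT at day 7 and GMT at day 2, and mock and AGHMT at day 2. Set against Mpeg1, the level of Csf1r was 0.242 to 0.284 of it in the mock libraries at day 2 and 0.549 to 0.613 at day 7. Under GMT the ratio was 1.23 to 1.75 at day 2 and 4.1 to 4.5 at day 7, under GHMT 1.13 to 1.25 and 2.91 to 3.05, and under AGHMT 1.07 to 1.19 and 2.7 to 3.54. No cocktail library overlapped with mock in this ratio, and the ratios to Lyz2, Adgre1, Tyrobp and Spi1 were likewise higher in every cocktail group than in the mock of its day by their group means. The exons of Csf1r overlap those of Hmgxb3 on the other strand over 873 bases, 15.1% of their length, and the strand setting of the counting is not given in the sources used here. Hmgxb3 stayed between 36.99 and 45.56 CPM by group mean, lowest under AGHMT and highest in mock at day 2. Its neighbour Pdgfrb, a receptor of fibroblasts, was below mock under every cocktail (464 ± 19.2 CPM in mock and 83.2 ± 5.31 CPM under AGHMT at day 7).

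Csf1 (ENSMUSG00000014599, chromosome 3, 107741048-107760469), the ligand, was abundant in every library. It stood at 339, 348 and 313 CPM in mock at day 7, at 336, 312 and 317 CPM under GMT and at 326, 309.8 and 321 CPM under AGHMT, which overlapped with mock and were not called (log2 -0.05 ± 0.05, adjusted p = 0.356, and log2 -0.06 ± 0.05, adjusted p = 0.24, edgeR). Under GHMT it was 443, 454 and 484 CPM, above all other libraries of either day (log2 0.47 ± 0.05, adjusted p = 4.43e-09). At day 2 the ligand was lower under each cocktail, at 182, 176 and 187 CPM under GMT, 279.7, 264 and 279.6 CPM under GHMT and 145, 147 and 138 CPM under AGHMT against 417, 416 and 384 CPM in mock. The 4 groups did not overlap, with differences of log2 -1.16 ± 0.05, -0.56 ± 0.05 and -1.50 ± 0.05.

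Over time Csf1 fell in mock (log2 -0.28 ± 0.05) and rose under GMT (0.82 ± 0.05), GHMT (0.74 ± 0.05) and AGHMT (1.16 ± 0.05). In order of group means it ran from GHMT at day 7 (460 ± 21.4 CPM) through mock at day 2 (406 ± 18.7), mock (333 ± 18.05), GMT (322 ± 12.6) and AGHMT (319 ± 8.39) at day 7 to GHMT (275 ± 8.77), GMT (182 ± 5.74) and AGHMT (143 ± 4.55) at day 2, where only mock, GMT and AGHMT at day 7 overlapped as neighbours. Over the 8 group means the genes most like Csf1 in log2 CPM were Tagln, a smooth muscle actin-binding protein (Pearson r = 0.9732), Mcpt8, a basophil protease (0.9671), Gadd45b, a stress response gene (0.9653), Tpm2, a tropomyosin (0.9603), and Fxyd5 (0.9567), which describes these 8 means that share libraries and was not tested. Genes much like Csf1r by the same measure, looked up after its values were seen, included Arhgef26 (0.9675) and Zbtb4 (0.9664).

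**Figure D3:**
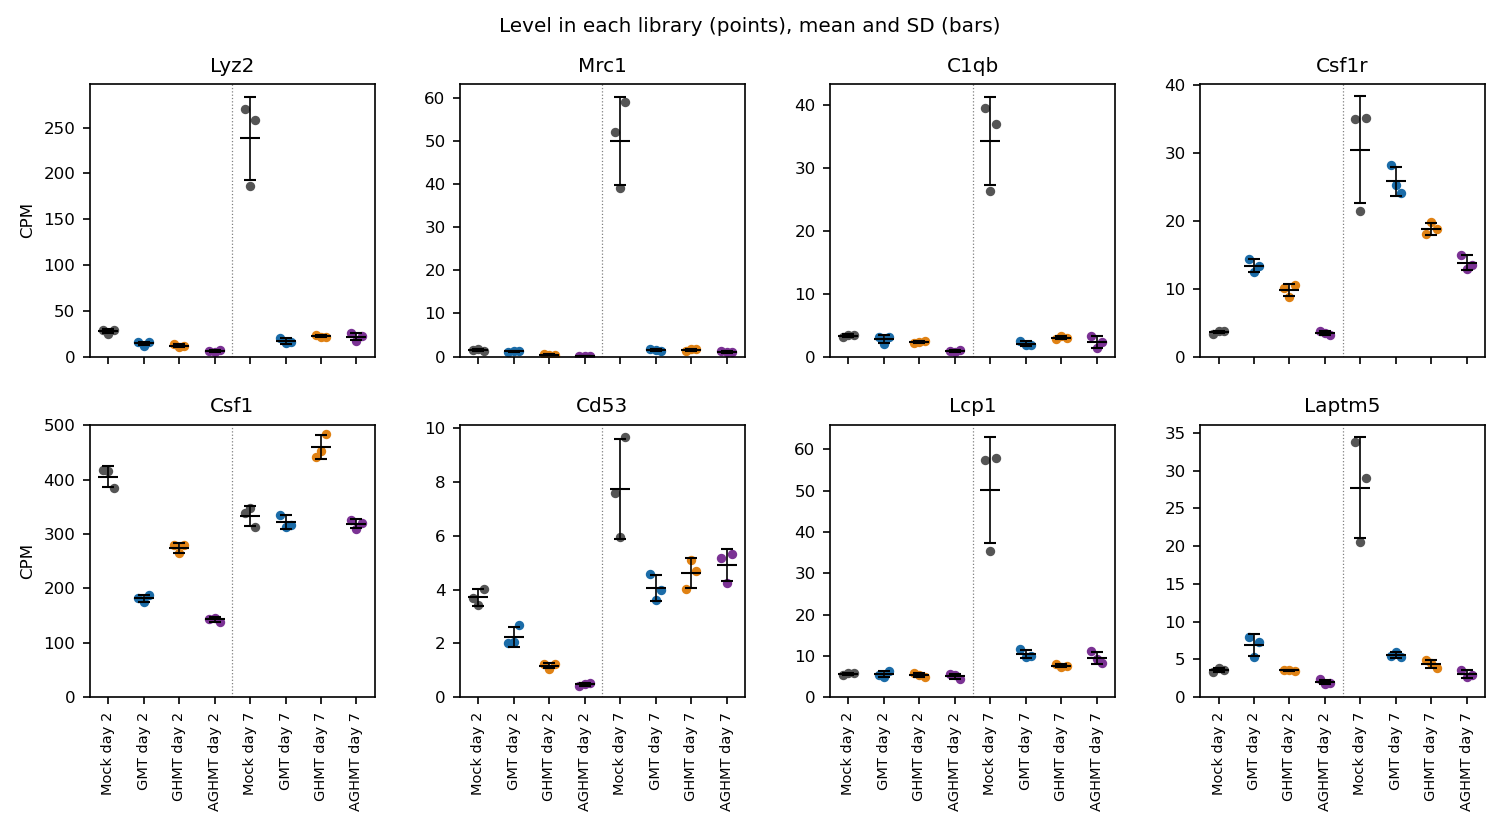
CPM in each library (points), with mean and SD (bars), in the 8 groups on the x axis for 8 macrophage genes. Lyz2, Mrc1, C1qb and Lcp1 stand out in mock at day 7, Csf1r under GMT at day 7 (23.98 to 28.2 CPM) overlaps with mock (21.3 to 35.1 CPM), and Csf1 is lowest under AGHMT at day 2 and highest under GHMT at day 7.

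The other genes of the CSF family gave a mixed picture. Of 8 listed cytokines and receptors, 5 were tested, Csf1 and Csf1r included. Il34, the other ligand of CSF1R, stood at 3.404 ± 0.586 CPM in mock at day 7 and was lower under GMT, GHMT and AGHMT (log2 -1.26 ± 0.19, -1.06 ± 0.19 and -1.28 ± 0.20). Csf2ra, a chain of the receptor for granulocyte-macrophage colony-stimulating factor, was also lower under each (13.5 ± 1.25 CPM in mock, 6.25 ± 0.614 CPM under AGHMT). Its partner chain Csf2rb was higher under each, from 1.16 ± 0.422 CPM in mock to 3.96 ± 0.494 CPM under AGHMT (log2 1.76 ± 0.19, adjusted p = 7.72e-09, edgeR).

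Of the 7 surface proteins Adgre1 (ENSMUSG00000004730, chromosome 17, 57358691-57483527), an adhesion receptor widely used to stain mouse macrophages, stood at 27.4, 18.6 and 26.7 CPM in mock at day 7 and at 2.01, 2.54 and 1.495 CPM at day 2 (log2 3.58 ± 0.18, adjusted p = 1.67e-14, edgeR). At day 7 it was 1.45, 1.94 and 1.32 CPM under GMT, 1.74, 1.93 and 1.84 CPM under GHMT and 1.73, 0.946 and 1.58 CPM under AGHMT, 15.4-, 13.2- and 16.98-fold below mock. The GMT libraries overlapped with both other cocktails, and no cocktail library exceeded the highest mock library of day 2. At day 2 AGHMT held 0.405, 0.394 and 0.194 CPM, below all libraries of the other groups (log2 -2.62 ± 0.36 against mock and -1.83 ± 0.41 against GHMT). Itgam, the integrin chain of the complement receptor, stood at 14.7, 9.38 and 14.8 CPM in mock at day 7 and at 0.589 ± 0.154, 0.894 ± 0.352 and 0.798 ± 0.228 CPM under GMT, GHMT and AGHMT (log2 -4.44 ± 0.22, -3.88 ± 0.20 and -4.01 ± 0.21). The deposited table gives the symbol Itgam to the identifier ENSMUSG00000108596, which GENCODE M21 names as a separate model that shares 71.8% of its exon bases with Itgam, so this row may hold part of its reads.

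Cx3cr1, the fractalkine receptor, fell furthest among the surface proteins, from 8.95, 5.37 and 7.99 CPM in mock at day 7 to 0.148 to 0.285 CPM over the 9 cocktail libraries (log2 -5.14, -5.16 and -5.21). Those cocktail levels rest on few counts, 5, 10 and 7 under GMT. Ptprc, the phosphatase found on all nucleated blood cells, Ms4a7, a membrane protein of tissue macrophages, and Cd52, a small glycoprotein of leukocytes, stood at 8.63 ± 1.98, 11.4 ± 1.96 and 2.77 ± 0.617 CPM in mock at day 7 and fell under every cocktail by 3.19 to 4.26 on the log2 scale. Cd52 held only 2, 6 and 7 counts under GMT at day 7, and it shares 172 exon bases with Crybg2 on the other strand.

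Cd53, a tetraspanin of leukocytes, was closer to mock at day 7 and was singled out after its values were seen. At day 2 it was 3.7, 3.41 and 4.04 CPM in mock, 2.01, 2.06 and 2.67 CPM under GMT, 1.22, 1.06 and 1.23 CPM under GHMT and 0.405, 0.493 and 0.526 CPM under AGHMT, 4 ranges without overlap (log2 -0.73 ± 0.17, -1.66 ± 0.20 and -2.96 ± 0.23 against mock). At day 7 the values were 7.59, 5.94 and 9.66 CPM in mock and 4.06 ± 0.474, 4.601 ± 0.557 and 4.92 ± 0.589 CPM under GMT, GHMT and AGHMT, lower than mock by only log2 -0.93 ± 0.14, -0.75 ± 0.14 and -0.65 ± 0.14. Over time it rose by log2 3.37 ± 0.22 under AGHMT (adjusted p = 2.83e-12), the largest rise of any member there. Its effect under AGHMT was thus smaller at day 7 than at day 2, by log2 2.31 ± 0.28 (adjusted p = 1.89e-07), where 25 of the 33 members were called in the other direction.

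Spi1 (ENSMUSG00000002111, chromosome 2, 91082390-91115756), the lineage transcription factor, was low in every group and followed the majority. It stood at 0.554, 0.731 and 0.598 CPM in mock at day 2 and at 5.49, 3.47 and 5.55 CPM at day 7 (log2 2.93 ± 0.24, adjusted p = 1.17e-10, edgeR). At day 7 it was 0.712, 0.457 and 0.5103 CPM under GMT, 0.7001, 0.815 and 0.787 CPM under GHMT and 0.535, 0.261 and 0.476 CPM under AGHMT (log2 -3.11 ± 0.24, -2.65 ± 0.23 and -3.49 ± 0.26). The cocktail libraries lay in the range of mock at day 2 or below it, apart from GHMT replicates 2 and 3 just above. At day 2 GMT and GHMT were not called (log2 0.26 ± 0.32, adjusted p = 0.48, and -0.16 ± 0.35, adjusted p = 0.705), and AGHMT was lower at 0.261, 0.197 and 0.305 CPM (log2 -1.28 ± 0.41).

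Cd74, the invariant chain that escorts MHC class II molecules, was low, at 0.827, 0.512 and 0.253 CPM in mock at day 7. Under GMT it was 0.0593, 0.0571 and 0.161 CPM, under GHMT 0.196, 0.272 and 0.295 CPM and under AGHMT 0.377, 0.326 and 0.357 CPM. The mock libraries spread so widely that GHMT and AGHMT overlapped with them. Against mock GMT was lower (log2 -2.46 ± 0.43, adjusted p = 1.52e-05), GHMT was lower (log2 -1.08 ± 0.35, adjusted p = 0.00801) and AGHMT was not called (log2 -0.60 ± 0.33, adjusted p = 0.103, edgeR). The GHMT call was lost without mock replicate 1 (adjusted p = 0.168) and the AGHMT difference was called without mock replicate 3 (adjusted p = 0.00719). Of 6 MHC class II genes listed, 5 were tested, and under AGHMT at day 7 all 5 were higher and 0 lower, H2-Ab1 from 0.242 ± 0.0832 to 2.32 ± 0.0513 CPM (log2 3.23 ± 0.25, adjusted p = 1.58e-11, edgeR) and H2-DMa from 3.79 ± 0.389 to 6.12 ± 0.393 CPM. Under GMT and GHMT 3 of the 5 were higher and 0 lower. Of all genes 38.6% were called higher under AGHMT, 37.1% under GMT and 36.3% under GHMT.

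The 3 actin-binding proteins of blood cells were below mock under every cocktail at day 7. Lcp1 (chromosome 14, 75131101-75230842), which bundles actin filaments, stood at 5.48, 5.93 and 5.74 CPM in mock at day 2, and GMT, GHMT and AGHMT at 5.53 ± 0.713, 5.36 ± 0.543 and 5.06 ± 0.6304 CPM did not pass the test (log2 -0.05 ± 0.18, -0.09 ± 0.18 and -0.18 ± 0.18). In mock it rose to 57.4, 35.4 and 57.9 CPM at day 7 (log2 3.13 ± 0.15, adjusted p = 5.41e-15, edgeR). Under the cocktails it was 11.6, 9.704 and 10.1 CPM in GMT, 8.07, 7.34 and 7.48 CPM in GHMT and 11.2, 9.27 and 8.35 CPM in AGHMT. These lay below mock (log2 -2.26 ± 0.14, -2.72 ± 0.14 and -2.39 ± 0.14) but above every library of day 2, so Lcp1 rose over time in all 4 treatments. Coro1a (chromosome 7, 126699773-126707787), a coronin of phagocytes and lymphocytes, stood at 10.01, 5.94 and 7.99 CPM in mock at day 7 and at 1.24 ± 0.168, 1.72 ± 0.309 and 1.25 ± 0.117 CPM under the cocktails (log2 -2.69 ± 0.17, -2.21 ± 0.16 and -2.67 ± 0.17). At day 2 it was lower under GMT alone, at 0.862 ± 0.114 against 1.63 ± 0.0411 CPM (log2 -0.92 ± 0.23), and 1.61 ± 0.167 CPM under AGHMT was not called (log2 -0.01 ± 0.20). Aif1, a calcium-binding protein of microglia and macrophages, reached only 0.709, 0.362 and 0.729 CPM in mock at day 7 and 0 to 0.254 CPM elsewhere.

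Pf4, a chemokine stored in platelets and also made by tissue macrophages, stood at 2.304, 1.78 and 1.81 CPM in mock at day 7 and at 0.3995 ± 0.115, 0.489 ± 0.128 and 0.407 ± 0.0435 CPM under GMT, GHMT and AGHMT (log2 -2.30 ± 0.25, -1.98 ± 0.24 and -2.27 ± 0.25). At day 2 it was 0.495, 0.595 and 0.419 CPM in mock and 0.02896, 0.0329 and 0.139 CPM under AGHMT, the latter being 1, 1 and 5 counts. Ppbp, another platelet chemokine named here after its values were seen, stood at 2.67 ± 0.257 CPM in mock at day 2 and 2.36 ± 0.215 CPM at day 7 (not called, log2 -0.18 ± 0.15, adjusted p = 0.315, edgeR).

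Per kilobase of exon, Lyz2 led the members in mock at day 7 at 181 CPM per kb. The ligand Csf1 followed at 63.1, then C1qb at 31.5, C1qa at 28.4 and Tyrobp at 18.7 CPM per kb. At day 2 mock was led by Csf1 at 76.8 CPM per kb, then Lyz2 at 21, Cd68 at 3.9 and Mpeg1 at 3.16. Mrc1 moved from rank 26 of 34 at day 2 to rank 11 at day 7 on this scale. Cd163 was last on both days.

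Within several groups the members were low together in the same library. In mock at day 7, 29 of the 30 members at 1 CPM or more, leaving out Csf1, had their lowest value in replicate 2, the exception being Fcgr2b. Replicate 2 stood at a median of 0.686 of the mean of replicates 1 and 3. The median coefficient of variation was 21.2% for the members at 1 CPM or more and 4.85% for all such genes. Under AGHMT at day 7, 17 of 20 were lowest in replicate 2 and 18 highest in replicate 1 (median variation 18.1% against 3.77%), and under GMT at day 2, 19 of 22 were lowest in replicate 2 (16.3% against 3.25%). Under GMT at day 7 it was another library, with 15 of 21 lowest in replicate 3 and 16 highest in replicate 1 (12.3% against 3.59%). At day 2, 11 of 17 under GHMT and 6 of 9 under AGHMT were lowest in replicate 2. Under GHMT at day 7 no replicate held more than 10 of 22 as the lowest, and the variation was 7.75% against 5.54%. Replicate 2 was there the highest for 14 of the 22. In mock at day 2 replicate 2 was the highest for 13 of 24 members and the lowest for 5. Members of a library share its cells, so these counts describe libraries and are not 29 separate observations. The genes set beside them for variation were not matched to the members in level. Under the cocktails many members had few counts, such as Tyrobp with 61, 28 and 50 under AGHMT at day 7. Counting noise adds to the variation of such members, and its part was not computed.

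**Figure D4:**
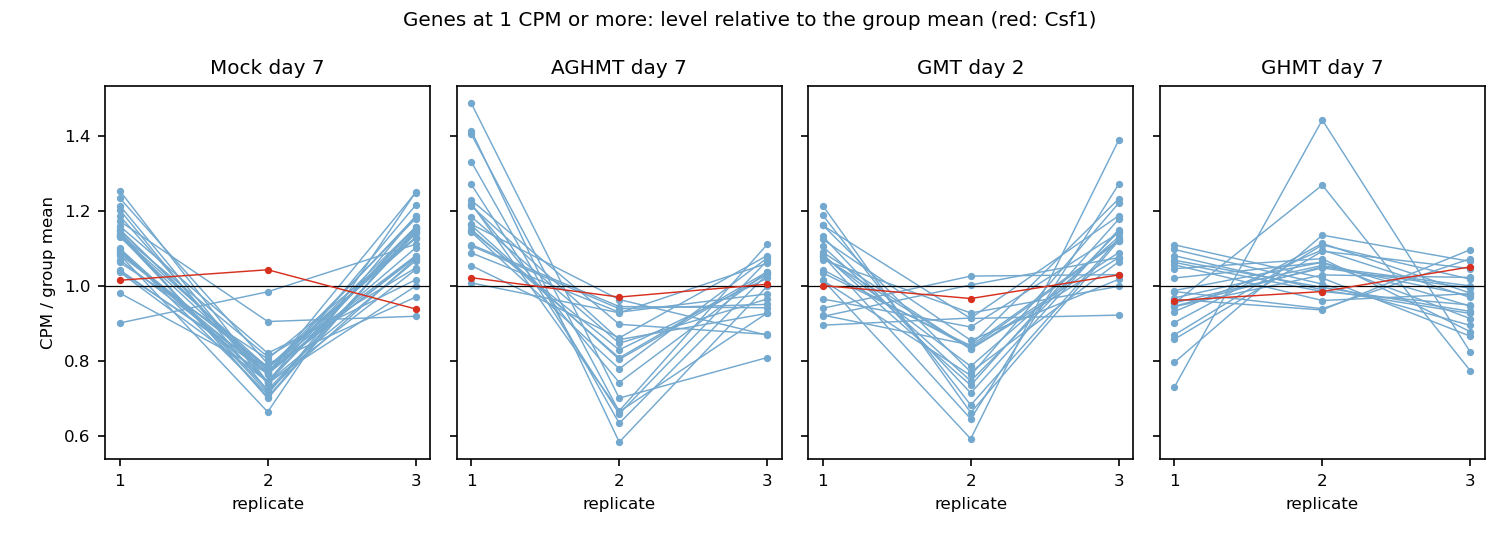
Level of each macrophage gene at 1 CPM or more relative to the mean of its group (y axis) in replicates 1 to 3 (x axis) of 4 groups, with Csf1 in red. In mock and AGHMT at day 7 and GMT at day 2 nearly all lines dip at replicate 2, while Csf1 stays near 1, and under GHMT at day 7 they show no shared dip.

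A longer list of 60 other macrophage genes, of which 54 were tested, followed the members in mock and at day 7 by counts and medians. Its summed level did so only in part. At day 7 the sum ran from 636 to 764 CPM in mock and from 728 to 777 CPM under GMT. GHMT lay at 527 to 544 CPM and AGHMT at 330 to 345 CPM. At day 2 the sum ran from 434 to 456 CPM in mock and from 866 to 894 CPM under GMT. GHMT then lay at 538 to 550 CPM and AGHMT at 273 to 283 CPM. The highest group mean of the list was that of Gpnmb, at 612 CPM. In mock 48 genes of the list were higher at day 7 than at day 2 and 2 lower (median 2.15), against 29.7% and 25.8% of all genes. At day 7, 42 were lower and 8 higher under GMT, 39 and 9 under GHMT, and 44 and 6 under AGHMT, where the shares of all genes were 36% and 37.1%, 35.6% and 36.3%, and 38.1% and 38.6%. The medians of the list were -2.43, -1.90 and -2.18. At day 2, 12 were lower and 12 higher under GMT, 15 and 11 under GHMT, and 35 and 11 under AGHMT, against 33.1% and 33.9%, 33.3% and 34.9%, and 37.4% and 38% of all genes. Under GMT and GHMT at day 2 both shares of the list lay below those of all genes, which were not matched to the list in level. Among those with the smallest adjusted p under AGHMT at day 7 were Sirpa, an inhibitory receptor of phagocytes (79.1 ± 5.16 CPM in mock and 10.4 ± 1.65 CPM), Itgax and Clec12a, a lectin (4.28 ± 0.729 and 0.2197 ± 0.0689 CPM). Itgax, an integrin chain of dendritic cells and some macrophages, went the other way, from 0.0607 ± 0.0293 to 5.05 ± 0.473 CPM (log2 6.29 ± 0.31, adjusted p = 1.39e-15, edgeR).

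Of the lists of other blood cells, those of T and NK cells, neutrophils and B cells were low. All 6 T and NK cell markers and all 6 neutrophil markers were below 1 CPM in every group, with Cd3e and Ncr1 at 0 counts in all 24 libraries, and 4 of 5 B cell markers were below 1 CPM, the exception Pax5 reaching 2.28 ± 0.6098 CPM in mock at day 2. Summed over a library, T and NK cell markers ran from 0.0904 to 0.158 CPM in mock at day 7 and neutrophil markers from 0.0317 to 0.121 CPM. Other lists reached higher levels. Summed mast cell markers ran from 0.127 to 0.207 CPM in mock at day 7 and from 165 to 176 CPM under AGHMT, nearly all of it Mcpt4. Dendritic cell markers ran from 4.47 to 5.49 CPM in mock at day 7 and from 38.8 to 43 CPM under GMT, most of it Zbtb46, and megakaryocyte markers from 7.64 to 8.8 CPM in mock. Their part in the levels of the members was not tested. Fibroblast markers were below mock at day 7 for 10 of 10 genes under every cocktail. Of all genes, 36%, 35.6% and 38.1% were called lower under GMT, GHMT and AGHMT. The summed levels of the fibroblast markers were 60700 to 67600 CPM in mock and 7370 to 7840 CPM under GMT. They were 12200 to 14000 CPM under GHMT and 15000 to 15900 CPM under AGHMT. The part of this fall in the levels of macrophage genes, which are shares of all counts, was not tested.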

How the data were processed

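The members and all gene lists were chosen with earlier results of these data known. Total RNA of 24 libraries (8 groups of 3) had been sequenced, and the values are read counts per gene as deposited by the authors. Per the submitters' processing notes, the build was GRCm38 and the tools included featureCounts 1.4.6, HISAT2 2.0.1, DESeq2 1.6.3 and Trim Galore 0.4.1. The strand setting of the counting is not given in the sources used here.

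Groups came from the sample titles. Genes with too few counts for their group size were dropped (edgeR's filterByExpr, a minimum of 0.298 CPM in at least 3 libraries), which left 17576 of 47967 genes and at least 99.9% of each library's counts. One edgeR 4.0.16 quasi-likelihood model (R 4.3.3, TMM, 24 libraries, 16 residual degrees of freedom, common biological variation of 5.55%) was fitted over all groups, and 17 contrasts were tested with Benjamini-Hochberg adjustment over all genes. The SE is the absolute log2 fold change divided by the square root of the F statistic. A count of members is read against the share of all genes called. All genes were not matched to the members in level, and genes with few counts are called less readily. A share below the background therefore need not mean less change. On simulated counts for AGHMT against mock at day 7 (16240 genes), 4-fold changes were called for 100% of genes, 2-fold for 94%, 1.5-fold for 77.1% and 1.2-fold for 47.9%, while 7 of 15764 genes left alone were called. The simulation held the libraries of these 2 groups alone and changed few genes. In the data 76.8% of genes were called for this comparison, so the simulated rates may not hold there.

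Library totals ran from 29345957 to 37495178 counts, so genes with few counts are imprecise. All replicate pairs differed by more than counting noise (chi-square per degree of freedom at least 1.49). The largest values were those of AGHMT replicate 3 at day 2, at 41.7 and 38.8 against replicates 1 and 2. Leaving out single libraries gave 26 to 29 members called for AGHMT against mock at day 2, and 20 to 24 for AGHMT against GHMT. Genes named with full values were the 2 with the highest mean CPM in mock at day 7 in each role, and any member not called lower under at least 2 cocktails at day 7 (Csf1 and the untested Cd163). From other lists up to 4 were named by adjusted p under AGHMT at day 7, and some genes that the rules select are not reported here. Gene models came from GENCODE M21, which matched 47601 of the IDs, and promoters from RefSeq. Alternatives were DESeq2 1.42.0, its size factors in edgeR, no filter, the replicate block, the compared libraries alone and leaving out each library.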

Additional observations from a re-analysis of the deposited data

Results flagged for a closer look

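The effect of each cocktail against mock differed between day 2 and day 7 for most macrophage genes, by interaction tests in edgeR. Under GMT the effect was lower at day 7 for 30 members and higher for 1, under GHMT for 28 and 2, and under AGHMT for 25 and 2. The shares of all genes called were 25.3% and 24.3%, 26% and 23.3%, and 26.1% and 24.8%.

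In 3 cases the effect was called in opposite directions on the 2 days. Laptm5 under GMT was above mock at day 2 and below it at day 7, a difference of log2 -3.26. Csf1r under GHMT did the same, with a difference of log2 -2.13. Csf1 under GHMT went from below mock to above it, with a difference of log2 1.03. In 6 others the fitted effect had opposite signs but was not called on at least 1 of the days.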

How the results depend on the processing

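No called value reversed under the alternatives run. Of 196 values of named genes, recomputed 2224 times, 2156 stayed on the same side of the threshold, 45 were no longer called and 23 became called, which touched 26 values. Counts of members moved by over 1.5 times in 4 comparisons, and the cause was not tested beyond the change in genes or libraries each alternative makes. Without the filter on low counts, the 6 members called for GHMT against GMT at day 7 became 11, the 6 for AGHMT against GHMT at day 7 became 15, and the 8 for GMT at day 7 against day 2 became 14. With the compared libraries alone, AGHMT against GHMT at day 7 gave 11 and GMT over time 15. Leaving out single libraries gave 2 to 6 for GHMT against GMT at day 7 (2 without GHMT replicate 2), 4 to 11 for AGHMT against GHMT at day 7 (11 without AGHMT replicate 1) and 5 to 10 for GHMT against GMT at day 2 (5 without GHMT replicate 2).

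Replicate numbers were shared between groups. Over all genes same-numbered libraries mostly did not deviate together (r from -0.213 to 0.274 over 84 pairs, 1 of them over 0.1), and the main model holds no replicate block. An r over all genes cannot show whether same-numbered libraries share an origin or vary together for the members. For the members alone, replicate 2 had the lowest summed level in 5 of the 8 groups. With the replicate block 31 members were called for GMT against mock at day 7, 9 for AGHMT against GHMT at day 7 and 19 for GHMT over time, and no count moved by over 1.5 times. Among the members limited by depth are Cd163, Cd74, Aif1, Pf4, Fcgr1, Fcgr2b, Cx3cr1, Cd52 and Mrc1, whose lowest groups rest on few counts.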

Other observations

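Some genes of other blood cell lists were higher under the cocktails than in mock. Mcpt4, a protease of connective tissue mast cells, had 0 counts in all 6 mock libraries and stood at 11.96 ± 0.631 CPM under GMT, 65.96 ± 3.77 CPM under GHMT and 172 ± 5.897 CPM under AGHMT at day 7, while the other 4 mast cell markers stayed below 1 CPM in every group. Zbtb46, a transcription factor of dendritic cells and of endothelium, stood at 4.63 ± 0.573 CPM in mock at day 7 and at 32.98 ± 2.101, 26.5 ± 0.619 and 9.85 ± 0.942 CPM under GMT, GHMT and AGHMT. Xcr1, a chemokine receptor of dendritic cells, stood at 0.0609 ± 0.00221 CPM in mock and at 7.94 ± 0.181 CPM under GMT. The other 3 of the 5 dendritic cell markers stayed below 1 CPM in every group.

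Among the other macrophage genes Gpnmb, a glycoprotein of lysosomes, was higher under GMT and lower under AGHMT. It stood at 152 ± 8.36 CPM in mock at day 7, at 481 ± 18.4 CPM under GMT and at 87.6 ± 1.25 CPM under AGHMT (log2 1.66 ± 0.04 and -0.79 ± 0.04, edgeR). Stab1, a scavenger receptor of macrophages and endothelium, fell from 65.8 ± 12.7 CPM in mock to 2.18 ± 0.305 CPM under GMT and 15.7 ± 1.15 CPM under AGHMT. These genes were named after their values were seen.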
